A study of Drosophila melanogaster with 2 samples.

Results

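Chromosome 4 of Drosophila melanogaster held 328 of the 29031 regions listed for replicate 2 in a chromatin immunoprecipitation experiment on the nuclear receptor Hr38. These regions were chosen by their chromosome alone, as every row placed on chromosome 4 in the dm6 list of replicate 2. They were set beside the chromosome 4 rows of the replicate 1 list (89 of 30000), of the list made from both replicates pooled (101 of 19279) and of the list thresholded by the irreproducible discovery rate, IDR (1 of 768). Since the listing itself selected the members, their number, scores and ranks are described and not tested.

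Chromatin was taken from whole prepupae, staged as white prepupae, of a stable transgenic line in which GFP is joined to the C terminus of Hr38, and it was precipitated with an antibody against GFP after sonication. Males and females were pooled, and the age of 48 h on the labels has no stated starting point. There is 1 group of 2 biological replicates, both from this line, so no genotype, treatment or time was compared. The promoter that drives the fusion is not given in the sources used here, and the control experiment named in the labels was not analysed here.

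Hr38 is the fly member of the Nr4a family, nuclear receptors that are induced rapidly by activity and by hormones and can bind DNA as monomers. Chromosome 4, also called the dot chromosome or Muller element F, is the smallest chromosome of the fly. It is rich in transposon remnants, rarely recombines, and is coated by heterochromatin protein 1a and by POF, yet its genes are transcribed. Its genes include several developmental regulators, among them the Pax6 genes ey and toy, ci of the Hedgehog pathway and pan of the Wingless pathway.

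The replicates differed on this chromosome before any other result is considered. Replicate 2 listed 328 regions here and replicate 1 listed 89, a ratio of 3.69, whereas the ratio of replicate 2 to replicate 1 ran from 0.914 on 3R to 1.09 on X over the other 5 arms with more than 1 region. On Y, replicate 1 listed 1 region and replicate 2 listed 0. Every result is therefore given for each replicate list separately. Regions of 1 list come from 1 library, so they are not replicates of each other, and the 95% Wilson intervals printed below describe only the spread over listed regions. No read counts were used and the depth of each library is unknown.

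The sequences below are 201-base windows centred on the summits of 6 replicate 2 regions, from the plus strand of the RefSeq release 6 assembly, the build of the dm6 lists. Windows that touch an untranslated region or a transposable element are not shown. The first 3 belong to regions present in both replicate lists and the pooled list. The Gyf intron window, chr4:856582-856782, is from the member with the highest score (35.5) among those present in both replicates. The ey intron window, chr4:708658-708858, holds AGGTCA, the core that nuclear receptors recognise, which lies outside the overlapping replicate 1 region and only partly inside the pooled one. The CG33521 intron window, chr4:1187019-1187219, holds TATCGATA, a sequence bound by DREF. The next 2 come from high-scoring regions that had no replicate 1 partner, in an intron of Ekar at chr4:641643-641843 and between genes near myo at chr4:696707-696907. The last, in an intron of Gat at chr4:631912-632112, holds TGACCTTT, the reverse complement of the Nr4a monomer element AAAGGTCA. Capitals mark these motif letters, and a match is a description of the letters and not of binding.
Gyf: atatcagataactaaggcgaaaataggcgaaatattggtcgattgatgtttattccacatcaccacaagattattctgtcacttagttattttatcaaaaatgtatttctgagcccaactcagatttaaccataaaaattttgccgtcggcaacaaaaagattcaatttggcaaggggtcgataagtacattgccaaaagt
ey: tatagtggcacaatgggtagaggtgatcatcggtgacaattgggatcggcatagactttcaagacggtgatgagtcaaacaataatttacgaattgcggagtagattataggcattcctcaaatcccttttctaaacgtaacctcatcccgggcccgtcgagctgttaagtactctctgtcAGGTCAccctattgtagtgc
CG33521: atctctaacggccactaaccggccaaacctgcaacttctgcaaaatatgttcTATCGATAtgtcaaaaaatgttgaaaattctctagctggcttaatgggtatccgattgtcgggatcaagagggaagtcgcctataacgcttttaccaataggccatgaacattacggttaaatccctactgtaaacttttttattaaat
Ekar: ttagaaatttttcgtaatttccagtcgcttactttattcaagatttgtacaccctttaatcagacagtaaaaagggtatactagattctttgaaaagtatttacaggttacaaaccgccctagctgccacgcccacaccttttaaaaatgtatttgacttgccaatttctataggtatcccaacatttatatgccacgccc
myo: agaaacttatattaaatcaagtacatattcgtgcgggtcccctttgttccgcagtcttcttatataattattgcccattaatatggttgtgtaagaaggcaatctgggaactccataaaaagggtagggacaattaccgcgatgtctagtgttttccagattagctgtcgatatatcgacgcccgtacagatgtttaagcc
Gat: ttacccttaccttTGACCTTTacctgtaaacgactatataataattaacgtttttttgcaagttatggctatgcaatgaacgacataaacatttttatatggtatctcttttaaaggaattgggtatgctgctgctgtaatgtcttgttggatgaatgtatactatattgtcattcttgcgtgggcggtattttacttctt

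Chromosome 4 was listed as densely as the large autosomes in replicate 2 and far more thinly than any other arm drawn in replicate 1. It is 1348131 bp long and makes up 0.980% of the arm sequence. Replicate 2 listed 243 regions per Mb on it, against 161 to 247 on 2L, 2R, 3L, 3R and X. Replicate 1 listed 66.0 per Mb, against 148 to 258 on those arms, and the pooled list 74.9 per Mb. The share of listed regions on chromosome 4 was 1.13% in replicate 2 and 0.297% in replicate 1, a mean of 0.713% ± 0.589 (SD, n = 2). The replicate values thus lay on either side of the share of sequence. In the pooled list the share was 0.524%, and in the thresholded list 0.130%.

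**Figure D1:**
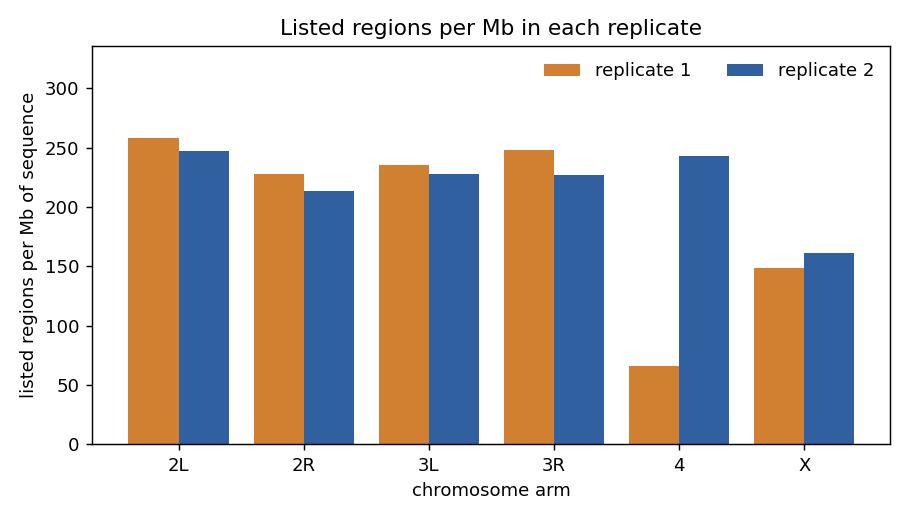
Listed regions per Mb of sequence (y axis) on chromosome 4 and on 2L, 2R, 3L, 3R and X (x axis; Y is not drawn) in replicate 1 and replicate 2, 1 bar per library and arm. Chromosome 4 has 243 per Mb in replicate 2 and 66.0 in replicate 1, while both bars of the other 5 arms drawn lie between 148 and 258.

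From the top 1000 regions down, replicate 2 had more chromosome 4 regions at every depth of the lists that was counted. Among the 768 highest-scoring regions each replicate had 1 on chromosome 4, and counts this small show no difference. Of the 1000 highest-scoring regions, 2 lay on chromosome 4 in replicate 2 and 1 in replicate 1. Among the 5000 highest, 57 (1.14%) did so in replicate 2 and 11 (0.22%) in replicate 1. Among the 10000 highest, the numbers were 105 and 30. The difference was thus not limited to the lowest scores. The first replicate 1 region of the chromosome starts at position 161044, and 32 replicate 2 regions and 4 pooled regions lie before it. Of 10 equal stretches of the chromosome, replicate 2 had more regions in each one. It had 21 against 0 in the first, 36 against 3 in the second, 36 against 20 in the ninth and 13 against 6 in the last.

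Base composition moved with this difference. Chromosome 4 has 35.2% GC, against 41.6% to 42.6% on 2L, 2R, 3L, 3R and X. Its listed regions had a median GC content of 35.3% in replicate 2 and 38.4% in replicate 1, against 42.5% and 46.8% for regions of the other arms. Regions under 35% GC numbered 152 in replicate 2 and 22 in replicate 1 on chromosome 4, a ratio of 6.91, and on the other arms the ratio was 2.49. From 35% to under 40% GC the ratios were 3.76 and 1.68, and from 40% to under 45% they were 1.84 and 1.04. At 45% GC and over, the count was 21 in replicate 2 and 13 in replicate 1 on chromosome 4, a ratio of 1.62, against 0.634 elsewhere. Thus the ratio fell as GC content rose on chromosome 4 and on the other arms alike, and within each GC range it was higher on chromosome 4. The part of base composition in the difference between the replicates was not tested beyond these ranges, which were chosen after the data were seen.

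**Figure D2:**
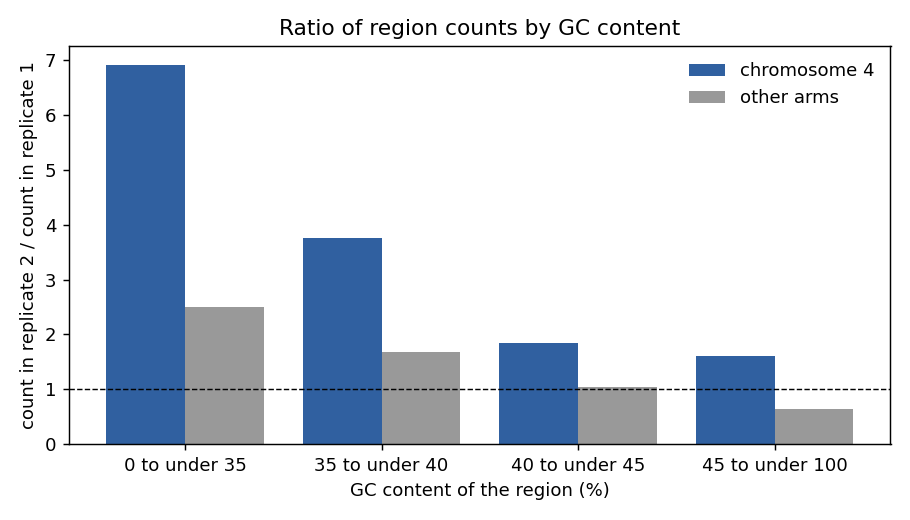
Number of regions in replicate 2 divided by the number in replicate 1 (y axis) within 4 ranges of region GC content (x axis), for chromosome 4 and for the other arms together. The dashed line marks a ratio of 1, and the chromosome 4 bar falls from 6.91 to 1.62 while the bar of the other arms falls from 2.49 to 0.634.

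Most regions of both replicate lists held no repeated sequence by 1 measure. All 30-base words were unique in the assembly for 244 of the 328 members (74.4%) and for 70 of the 89 replicate 1 regions (78.7%). With regions holding a repeated word left out, the ratio of the replicates was 3.49. With summits in annotated transposable elements left out it was 3.81. The part of repeated sequence in the difference between the replicates was not tested.

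By score, the members were ordinary rows of their list, with few near its top. Each region's score and -log10 q value are those the authors deposited, and the files do not state the scale of the score. Members scored between 12.5 and 43.8, and their median was 16.2, and the regions of the other arms had a median of 16.4 and a maximum of 358. The median rank was 14960.5 of 29031, so that 159 members (48.5%) ranked above the middle of the list. Their -log10 q ran from 0.0177 to 1.79, and 8 of the 328 passed 1. The member at rank 1597 of 29031 passed 1 (1.01), and the one at rank 1713 did not (0.981). For neither replicate was the share past 1 counted over all arms. The replicate 1 regions of the chromosome scored 15.9 to 43.8 with a median of 20.9, their best rank was 721, and 1 of the 89 passed a -log10 q of 1. Pooled scores on the chromosome lay between 28.2 and 104, with a median of 32.5, and 43 of 101 (42.6%) ranked above the middle. Scores were not compared between lists.

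The only chromosome 4 peak past the IDR threshold lay at the facing 3′ ends of Cals and sv. Cals encodes calsyntenin, a neuronal cadherin-type membrane protein (FBgn0039928, chr4:1112874-1123357, minus strand), and sv encodes the Pax2-type transcription factor shaven (FBgn0005561, chr4:1088798-1113317, plus strand). The peak, chr4:1113175-1113554, had a pooled score of 104, a rank of 402 among 19279 pooled regions and a -log10 q of 2.91. Its whole length lay in the annotated 3′ UTR of Cals, and 143 of its 380 bp lay in that of sv as well. The nearest protein-coding transcription start, that of Cals, was 9600 bp away. GC content of the peak was 32.6%.

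The same place carried the highest-scoring member, chr4:1113186-1113585, with a score of 43.8, a rank of 581 in replicate 2 and a -log10 q of 1.79. No replicate 1 region overlapped the peak. The closest one, chr4:1111230-1111599, scored 24.2, ranked 8085 in replicate 1 and ended 1576 bp away. Among the 768 thresholded peaks, 12 had no overlapping replicate 1 region, with pooled scores from 78.7 to 127, and this peak was 1 of them. On the dm3 lists the chromosome 4 peak likewise had no replicate 1 region. The next chromosome 4 region of the pooled list scored 56.6, below 78.0, the lowest score of any thresholded peak. The thresholded share of pooled regions was 0.990% on chromosome 4 (1 of 101, interval 0.175% to 5.40%), against 3.98% over all arms.

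After this peak, the highest-scoring members were scattered over introns and spaces between genes. The region in an intron of Ekar, a kainate-type glutamate receptor, scored 36.7 and ranked 936 (chr4:641543-641942). A region in an intron of Gyf, a GYF-domain protein, scored 35.5 at rank 1027 (chr4:856482-856881). One in an intron of eIF4G1, a scaffold of translation initiation, scored 34.7 at rank 1119 (chr4:922719-923118). Between genes, a region 752 bp from the start of myo, which encodes the TGF-beta family ligand myoglianin, scored 33.1 at rank 1279. Another, 4366 bp from the start of fuss, a Ski/Sno-family regulator, scored 32.3 at rank 1388. The highest at a promoter scored 32.1 at rank 1410 and lay 43 bp from a start of gw, the GW182 protein of microRNA silencing.

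The 20 highest members scored 26.8 to 43.8, and the lowest of them ranked 2662. By summit, 7 were intergenic, 6 intronic, 3 in other exons, all of these in transposable elements, 2 at promoters, 1 in a coding exon and 1 in a 3′ UTR. Of the 20, 14 overlapped a pooled region. A replicate 1 region was overlapped by 4, those in Gyf and ey, the one near fuss and one 24143 bp from the start of dati, a zinc-finger gene. Among all 328 members, 25.0% overlapped a pooled region and 12.8% a replicate 1 region. Over all arms, the shares of replicate 2 regions were 45.9% and 34.3%. Several of the 20 lay close to genes of developmental regulators: 1307 bp from toy (score 31.0), 1147 bp from the SoxD gene Sox102F (27.8) and 193 bp from the forkhead gene fd102C (27.2). Others were in an intron of ey (29.0) and in a coding exon of the zinc-finger homeodomain gene zfh2 (28.7). Members of the 20 also lay in genes of other kinds, such as Ekar, Gyf, eIF4G1 and gw. Whether the 20 lie near regulators more often than other members was not tested. The 14 listed transcription factor genes are long, with a median of 19082 bp against 10090 bp over all 80 genes. Counting all members, their median density was 2.42 per 10 kb, against 2.76 over all genes.

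Replicate 1 placed other regions at its top. Its highest was at the promoter of PlexA, a semaphorin receptor, 145 bp from the start, with a score of 43.8 at rank 721 (chr4:1027061-1027430). Replicate 2 listed chr4:1026774-1027173, which overlaps the start of this region, and chr4:1027434-1027833, just beyond its end, at ranks 3554 and 1828. Next in replicate 1 came the 5′ UTR of Actbeta, an activin ligand, with a score of 36.2 at rank 1396. Copies of the telomeric retrotransposon HeT-A followed at 35.7 and 33.2, the first with 49.6% of its 30-base words repeated elsewhere in the assembly. An intron of Sox102F scored 34.1 and an intron of Kif3C, a kinesin, 33.2. The pooled list joined both sets: after the thresholded peak its highest regions were at gw (56.6), Gyf (56.1), Actbeta (56.0), Kif3C (53.9) and the promoter of the semaphorin receptor gene PlexB (53.1).

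Few members had a partner in replicate 1. Of the 328, 42 (12.8%, interval 9.61% to 16.9%) overlapped a replicate 1 region by at least 1 bp, against 34.3% of replicate 2 regions over all arms and 34.5% on the other arms. Read from the shorter list, 39 of the 89 replicate 1 regions (43.8%, interval 34.0% to 54.2%) overlapped a replicate 2 region, against 32.3% over all arms and 32.2% on the other arms. The direction relative to the background thus depended on which list was the denominator, and the lists differ 3.69 times in length on this chromosome. Overlap with the pooled list was found for 82 members (25.0%, against 46.1% on the other arms) and for 48 replicate 1 regions (53.9%, against 50.3%).

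The pooled list on chromosome 4 leaned on replicate 2. Of its 101 regions, 35 (34.7%) overlapped both replicate lists, 44 (43.6%) replicate 2 only, 14 (13.9%) replicate 1 only and 8 (7.92%) neither. On the other arms the corresponding shares were 44.2%, 20.8%, 32.0% and 3.03%. The pooled list was made from the same alignments as the replicate lists, so these overlaps are not independent of them.

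Among the 42 members with a partner, rank in one replicate said little about rank in the other. Spearman's rho between the ranks was 0.166 over these 42 pairs, which overlap in position by construction and draw on 38 distinct replicate 1 regions. Having a partner was not tied to a high score: the median score was 16.1 with a partner and 16.2 without, and the median rank 15217.5 and 14948.5. Median GC content was 37.5% with a partner and 35.0% without. Only the pairs at PlexA (rank 3554 in replicate 2, 721 in replicate 1) and Actbeta (4123 and 1396) stood in the top 5000 of both lists. The Gyf pair ranked 1027 and 6411, the pair near fuss 1388 and 11027, the ey pair 2033 and 9315, and the pair near onecut, a homeodomain gene, 6505 and 3714. Of the 42 pairs, 19 ranked better in replicate 1, among them one at Kif3C (20186 in replicate 2, 1960 in replicate 1) and one near dati (16163 and 2592).

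**Figure D3:**
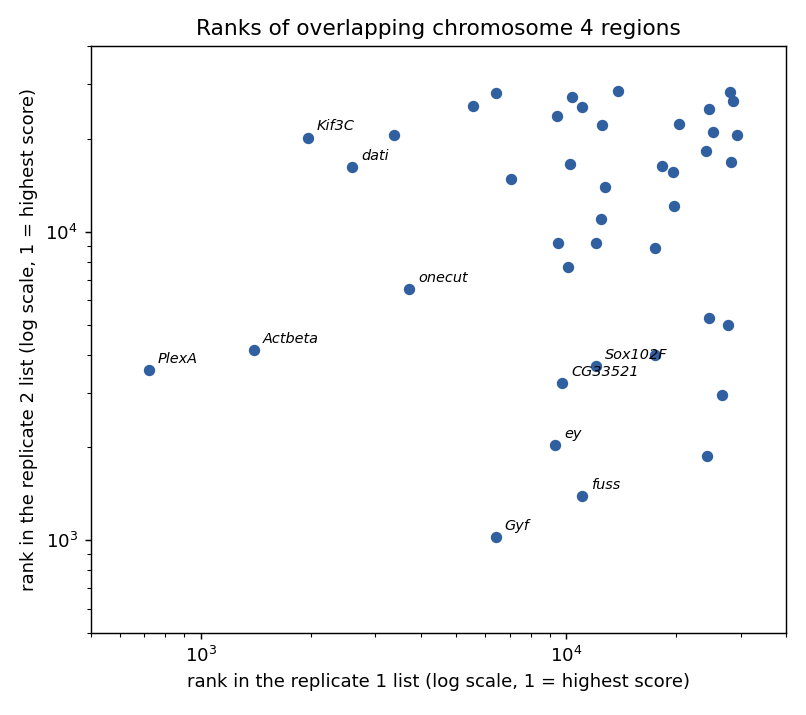
Rank in the replicate 1 list (x axis, log scale) against rank in the replicate 2 list (y axis, log scale) for the 42 chromosome 4 members that overlap a replicate 1 region, 1 point per member, with the 10 pairs of highest joint rank labelled by gene. PlexA and Actbeta are the pairs within the top 5000 of both lists. Of the 42, 10 ranked below the middle of both lists, and the log axes draw such low ranks close together.

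By position, the members followed the make-up of the chromosome in most classes, and promoters were the exception in replicate 2. A promoter here reaches 500 bp to either side of the transcription start of a protein-coding gene, and each summit was put in 1 class. Promoters make up 8.55% of the bases of chromosome 4 and held 58 of the 328 summits in replicate 2 (17.7%, interval 13.9% to 22.2%). They held 8 of 89 in replicate 1 (8.99%) and 17 of 101 in the pooled list (16.8%). On the other arms, promoters held 19.7% of replicate 2 regions and 13.2% of replicate 1 regions. Among thresholded peaks of the other arms the share was 49.8%, whereas the 1 on chromosome 4 lay in a 3′ UTR.

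Inside genes, introns held 88 members (26.8%, interval 22.3% to 31.9%) for 30.4% of the bases, and coding exons held 56 (17.1%, 13.4% to 21.5%) for 18.1%. Other exons, a class made of non-coding transcripts and annotated transposable elements, held 71 (21.6%, 17.5% to 26.4%) for 25.6%. In each of these classes the interval included the share of bases. The 3′ UTR class held 18 (5.49%, 3.50% to 8.51%) for 8.06%, the 5′ UTR class 3 (0.915%) for 0.977%, and intergenic sequence 34 (10.4%, 7.51% to 14.1%) for 8.27%. Replicate 1 had 26 intronic (29.2%), 19 coding-exon (21.3%), 20 other-exon (22.5%) and 12 intergenic (13.5%) regions. On the other arms, replicate 2 had 2.55% of its regions in other exons, 38.4% in introns and 18.4% in intergenic sequence. The sequence differs there as well: these classes make up 7.19%, 36.8% and 26.1% of the bases. Relative to its share of bases, intergenic sequence thus held more summits on chromosome 4 than on the other arms.

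**Figure D4:**
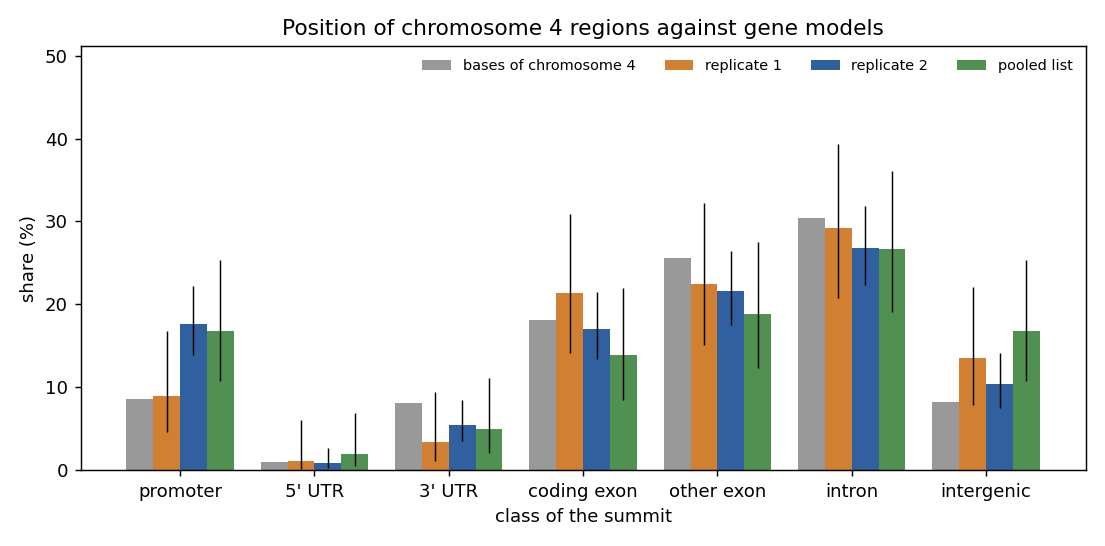
Share of bases of chromosome 4 and share of region summits in replicate 1, replicate 2 and the pooled list (y axis, percent) in each annotation class (x axis), with 95% Wilson intervals over regions as vertical lines. The promoter bars stand at 17.7% for replicate 2 and 8.99% for replicate 1, against 8.55% of bases.

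Transposable elements held about as many summits as their share of sequence. The annotation has 566 copies on chromosome 4, covering 333972 bp or 24.8% of it, and they held 69 members (21.0%), 21 replicate 1 regions (23.6%) and 19 pooled regions (18.8%). On the other arms such copies held 0.756% of replicate 2 and 0.692% of replicate 1 regions. INE-1, the short element that is scattered most widely on this chromosome, has 344 copies on 7.22% of the bases and held 48 members (14.6%), 10 replicate 1 regions (11.2%) and 12 pooled regions (11.9%). The DNA transposon 1360, with 60 copies on 3.79% of the bases, held 4 members, 1 replicate 1 region and 0 pooled regions. HeT-A, on 3.28% of the bases, held 3 members (0.915%) and 5 of the 89 replicate 1 regions (5.62%).

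Almost every gene of the chromosome was touched by a member. The chromosome has 80 protein-coding genes, and 78 of them (97.5%) had a replicate 2 region in the gene body, against 58.3% of all protein-coding genes. In replicate 1 it was 25 genes (31.25%), against 53.9%, and in the pooled list 41 (51.25%), against 46.1%. The genes left without a member were Arf4, a small GTPase of vesicle traffic, and Crk, an adaptor of receptor signalling. Genes of chromosome 4 are long, with a median of 10090 bp against 2154.5 bp on the other arms, and the number of regions in a gene rose with its length (Spearman's rho 0.724 over the 80 genes in replicate 2 and 0.435 in replicate 1). A count per gene is thus in part a measure of its length.

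The median gene held 2 members and 0 replicate 1 regions. Replicate 2 had more regions than replicate 1 in 71 genes and as many in 7, and replicate 1 had more in 2, Gat, a GABA transporter gene, and CG32017. The 10 genes with most members together touched 97 of the 328. The giant muscle gene bt (projectin) and unc-13, a synaptic vesicle priming gene, had 13 members each, and 9 and 3 replicate 1 regions. For zfh2 the counts were 12 and 6, for sv 11 and 4, for ey 9 and 7, and for Sox102F 8 and 4. Asator, a tau tubulin kinase gene, had 9 members and eIF4G1 had 8, yet both had 0 regions in replicate 1, and pan, the TCF factor of Wingless signalling, had 7 and 0.

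**Figure D5:**
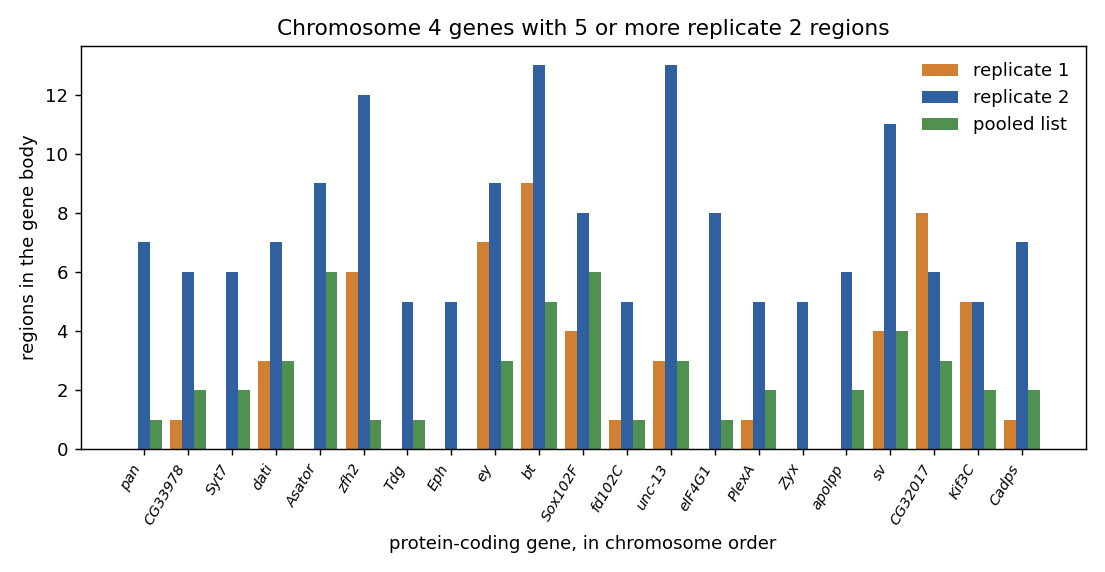
Number of listed regions in the gene body (y axis) for the 21 chromosome 4 genes with 5 or more replicate 2 regions, in chromosome order (x axis), for replicate 1, replicate 2 and the pooled list. Replicate 2 reaches 13 at bt and unc-13, replicate 1 has 0 at pan, Asator and eIF4G1, and CG32017 has more in replicate 1 (8) than in replicate 2 (6).

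Within these genes the summits lay in different places. Of the 12 in zfh2, 9 were intronic, 2 in coding exons and 1 in the 3′ UTR, and they scored 13.7 to 28.7. Of the 13 in bt, 7 were in coding exons, 4 in introns and 1 at a promoter, and none scored above 18.1. In unc-13, 5 of 13 were in coding exons and 5 in other exons, with scores of 12.6 to 26.3. Asator had 4 of its 9 summits at promoters, with scores up to 29.2 and a median of 22.2, and 5 of the 9 were in the pooled list. In ey, 6 of the 8 summits were intronic, 1 was at a promoter and 1 in a coding exon, and 3 overlapped a replicate 1 region.

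At transcription starts the replicates differed in number by more than they did on the chromosome as a whole. Promoters held 58 summits in replicate 2 (17.7% of its regions here) and 8 in replicate 1 (8.99%). This was not particular to chromosome 4. On the other arms too, promoters held more summits in replicate 2 (5664 of 28703 regions) than in replicate 1 (3935 of 29911). In replicate 2, 46 of the 80 genes (57.5%) had a region at a promoter, in the pooled list 13 and in replicate 1 7. The same share over all protein-coding genes was not counted, so these numbers have no background beside them. A region near the starts of neighbouring genes, such as CG11076 and ATPsynbeta, counts for each of them. Both replicates had one at 6 genes: ey, bt, Sox102F, unc-13, PlexA and CG32017. After gw, the highest-scoring promoter regions of replicate 2 were at fd102C (score 27.2, rank 2531, 193 bp from the start), PlexA (24.8, rank 3554, 127 bp) and CG31999 (24.5, rank 3670, 40 bp). Those of Sox102F (24.5, rank 3679, 157 bp) and ey (24.0, rank 3933, 20 bp) came next. The promoter region of ci, the Gli-type effector of Hedgehog signalling, scored 21.9 at rank 5490, and that of sv scored 19.3 at rank 8629.

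The 5 lists of chromosome 4 genes, grouped by known function, were described beside all 80 genes. Of these 80, 78 had a member, 25 a replicate 1 region, 46 a member at a promoter and 7 a replicate 1 region at one. With nearly every gene touched, a list in which all genes have a member does not stand apart. Among 14 transcription factor genes, 14 had a member and 7 a replicate 1 region, with 74 and 29 regions in all, and 7 and 2 had one at a promoter. These genes are long (median 19082 bp), and their median density of members was 2.42 per 10 kb, against 2.76 over all genes. Of 6 synapse and muscle genes, 6 had a member and 5 a replicate 1 region (46 and 16 regions), with a median length of 34360 bp and a density of 2.44 per 10 kb. The 13 signalling genes had members in 12 and replicate 1 regions in 2, with 37 and 5 regions, at 3.56 members per 10 kb. That list holds the ephrin receptor gene Eph with 5 members, and apolpp, a lipid carrier, with 6, and both had 0 replicate 1 regions.

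The housekeeping genes were mostly short and held members of both high and low score. Of 11 such genes (median length 3259 bp), 10 had a member and 1 had a replicate 1 region, with 28 regions against 1, and 8 had a member at a promoter against 0 in replicate 1. The promoter region of RpS3A, a ribosomal protein gene, scored 13.3 at rank 25093. That of ND-49, a subunit of respiratory complex I, scored 13.6 at rank 24019, and that of ATPsynbeta, a subunit of ATP synthase, 16.2 at rank 15179. All 3 ranked below the middle of the list, whereas the intronic regions of Gyf and eIF4G1, of the same group, were among its highest on the chromosome. Of the 5 genes listed under chromatin and RNA silencing, all 5 had a member and 0 had a replicate 1 region, with 18 members in all and 4 genes with one at a promoter. Asator, a kinase, and Ank, a cytoskeletal ankyrin, are in that list although their best known roles lie outside its name. The names of the other lists may be loose as well, and the lists are not complete. The forkhead gene fd102C, with 5 members, is in none of them. Differences between the lists were not tested.

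The Nr4a monomer element was as rare in the members as in the rest of the chromosome. AAAGGTCA was searched on both strands within 100 bp of each summit and was found in 2 of 328 members (0.610%, interval 0.167% to 2.20%). Of 6621 windows of the same length laid end to end along chromosome 4, 0.559% held it, and of replicate 2 regions on the other arms 0.610%. Replicate 1 had 0 of 89, which allows a share of up to 3.37%, and the pooled list 1 of 101. The members with the element were in a coding exon of Eph (score 13.6, rank 23723) and in the Gat intron shown above (score 14.0, rank 22155). The Gat region overlapped a replicate 1 region at rank 12491 and pooled regions at ranks 18572 and 12214, but the element lay outside the replicate 1 region, and the Eph region overlapped neither list. The shorter core AGGTCA, which AAAGGTCA contains, was found in 18 members (5.49%, interval 3.50% to 8.51%), 4.74% of the windows and 4.98% of replicate 2 regions elsewhere.

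The DREF sequence TATCGATA, which reads the same on both strands, was found in 14 members (4.27%, interval 2.56% to 7.04%). It was in 2 of 89 replicate 1 regions (2.25%), 4 of 101 pooled regions (3.96%), 1.98% of the chromosome 4 windows (interval 1.67% to 2.34%) and 0.906% of replicate 2 regions on the other arms. Of the 14 members, 2 were at promoters, at MED26, a Mediator subunit gene, and at Cadps, a gene of dense-core vesicle release, 44 and 42 bp from the start. The highest-scoring was the region 1307 bp from toy (score 31.0), and the 1 with a replicate 1 partner was in the CG33521 intron shown above (score 25.4, rank 3239). The GAGA repeat GAGAGAG, searched on both strands, was in 4 members (1.22%, interval 0.475% to 3.09%), 1.77% of the windows, 3.98% of replicate 2 regions on the other arms and 6.52% of the thresholded peaks there.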

How the data were processed

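Both replicates were whole white prepupae of the Hr38-GFP line. The authors deposited narrowPeak lists of peaks with background regions, 1 for each library and 1 for the pooled libraries, and an IDR-thresholded list, on dm6 and on dm3. The text files that accompany each deposited library say that its list was derived from its own alignments with a control. Which aligner, peak caller and IDR cutoff were used is not stated there or in the labels. The deposited columns used were the score, of unstated scale, the -log10 q value as narrowPeak defines it, and the summit. Depth is unknown. No column lacked a known sample or pool.

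Only regions on the chromosome arms were kept, Y included, and they were ranked by score within each list. Each summit was given 1 class, in this order of priority: promoter (500 bp to either side of a start of a protein-coding gene), untranslated region, coding exon, other exon, intron, intergenic. Gene models were those of Ensembl release 115. Other exons include annotated transposable elements. Overlap meant at least 1 shared bp, for regions and for gene bodies. Motifs were searched on both strands in 201-bp windows of the RefSeq release 6 assembly, and repeats were measured as 30-base words found more than once in it. Intervals are 95% Wilson intervals, and the limit printed beside a count of 0 is that of 3 counts. No statistical test was run. The counting steps were tested on simulated data. Tools were Python 3.11.15, numpy 2.4.6, pandas 2.3.3, scipy 1.17.1 and matplotlib 3.10.9.

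Genes named are that at the thresholded peak, those at the 20 highest replicate 2 regions of the chromosome, the 10 genes with most replicate 2 regions, those at the 10 highest regions of replicate 1 or the pooled list, and members of the 5 function lists. Genes outside this rule (Gat, CG31999 and MED26) were named after their values were seen. The members, lists and motifs were chosen with earlier results of these data known. Alternatives covered the genome build, the depth of the lists, merging of near regions, the overlap rule, the promoter width, the gene window, and leaving out each replicate. The ratio of replicate 2 to replicate 1 counts with all its alternatives (build, list depth, repeats, transposable elements and GC content), and the count without repeated words, were added after the data were seen.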

Additional observations from a re-analysis of the deposited data

How the results depend on the processing

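Of 39 alternatives to 12 results, 30 stayed within 1.5 times of a count or ratio, or within the spread of a share, and 9 moved the value. The number of replicate 2 regions on chromosome 4 was 215 when the list was held to as many top regions as the pooled list, which follows from the shorter list, and 313 on dm3. The share of members that overlap a replicate 1 region was 9.15% where the overlap had to cover at least 50% of both regions and 9.45% for summits within 200 bp. The promoter share was 25.0% with promoters of 1000 bp, which cover more sequence, and 8.99% without replicate 2. Genes with a member numbered 45 when only the 100 highest members were used. The ratio of replicate 2 to replicate 1 counts was 6.91 under 35% GC, 1.84 from 40% to under 45% and 1.62 at 45% and over, in ranges chosen after the data were seen, and the cause was not tested. On dm3 it was 3.60, and among the top 5000 regions of each list 5.18. The mean share of listed regions on chromosome 4, 0.713%, became 0.297% without replicate 2 and 1.13% without replicate 1, which lies above the 0.980% share of sequence, so each library decides it; its wide SD over the replicates is why these count as within the spread. No paired analysis was possible because there is only 1 group. Unknown depth limits every count, since the length of a list may depend on it.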

Other observations

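The distal end of the chromosome was rich in transposable elements. In the last of 10 equal stretches, transposable elements cover 66.4% of the bases, against 16.9% to 26.4% in the other stretches, and it held 13 replicate 2, 6 replicate 1 and 5 pooled regions. Beyond the last base of a protein-coding gene, at position 1271759, there were 5 replicate 1, 3 replicate 2 and 2 pooled regions. Among less common transposons, 4 members had summits in HB, a Tc1-type DNA element with 9 copies on the chromosome, and 3 in R1A1, a retrotransposon with 3 copies. The R1A1 summits all lay in toy, in sequence also annotated as INE-1, and neighbouring regions overlap there. The HB regions in fd102C overlap each other too. Replicate 1 had 0 in either element, but it listed 89 regions on the chromosome, too few to read this as a difference.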
